A study of Mus musculus with 6 samples.

Results

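The 44 genes described here build and remodel the extracellular matrix of muscle: collagen chains, collagen-processing enzymes, elastic fibre proteins, tenascins and other matricellular proteins, a tendon gene, and a growth factor and a receptor of matrix-producing cells. They were taken as the rows of the deposited array table that carry the 44 gene names, 1 row a gene among 34492 rows in all. RNA came from whole soleus, a slow postural hindlimb muscle, of male mice at 11 months of age. In the Coco/KO genotype skeletal muscle alpha-actin was replaced by cardiac actin, per the series title, and the comparison group was wildtype; both carry the strain designation CBB6F1xFVB/n. In published work under this name, Coco denotes a cardiac actin transgene driven by a skeletal muscle actin promoter, while the labels used here give neither the promoter nor the line. Each genotype had 3 RNA samples, each pooled from 2 soleus muscles of different mice, and each sample was hybridised to 1 array of a single beadchip, so p-values measure the spread between pools.

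Fibril-forming collagens make the tensile strands of endomysium, perimysium and tendon; their chains are hydroxylated and folded in the endoplasmic reticulum, trimmed outside the cell and cross-linked by lysyl oxidases. Network collagens and type VI collagen line each muscle fibre, elastic fibres give recoil, and matricellular proteins tune how cells read the matrix. In muscle most of these transcripts come from fibroblasts and tendon cells rather than from the fibres. In whole muscle a smaller number of such cells and less RNA per cell cannot be told apart.

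On the labels, ACTA1 (skeletal muscle alpha-actin) had intensities of 2357, 1471 and 1761 in Coco/KO muscle, against 43171, 49462 and 41190 in wildtype muscle. Between 11606 and 13071 rows were detected per array, each value being a mean over typically 35 or 36 beads. A row counted as detected on an array where its detection score, 1 minus the detection p-value, was above 0.95. Coco/KO array 1 stood apart from the others, with the lowest mean correlation to them (0.970, across genes) and a first-component score of 34.4, while the others scored -15.5 to 5.48. With 3 arrays a genotype, precision is limited by their number.

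Of the 44 matrix genes, 33 were detected on 3 or more arrays and entered the test, and 11 did not. None of the 33 differed between Coco/KO and wildtype soleus at an adjusted p of 0.05 (limma, Benjamini-Hochberg over all 12611 rows tested), where 0.143% of all rows tested did (0.0634% higher and 0.0793% lower in Coco/KO muscle). At an unadjusted p under 0.05 the count was 2 of 33, both higher in Coco/KO muscle (6.06%, against 8.19% of all rows in either direction, 3.96% higher and 4.23% lower). The 2 genes were MFAP5 and COL8A1. The count was 5 without Coco/KO array 2, 4 without wildtype array 1 and 4 with background modelled from the detection scores, MFAP5 and COL8A1 being among them each time. Differences below are on the scale of quantile-normalized log2 intensity after adding 58.7 units, Coco/KO minus wildtype, which understates the change of dim rows.

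As a description, 25 of the 33 tested genes had a difference above 0 and 8 below 0, against 49.9% above 0 over all rows tested. Their median difference was 0.15 on the log2 scale, against -0.0003 over all rows, and their quartiles were 0.03 and 0.28. The members' median deviation varied between arrays with an SD of 0.13, about as large as the median difference. The median difference was 0.08 without Coco/KO array 3 and 0.27 without Coco/KO array 2.

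**Figure D1:**
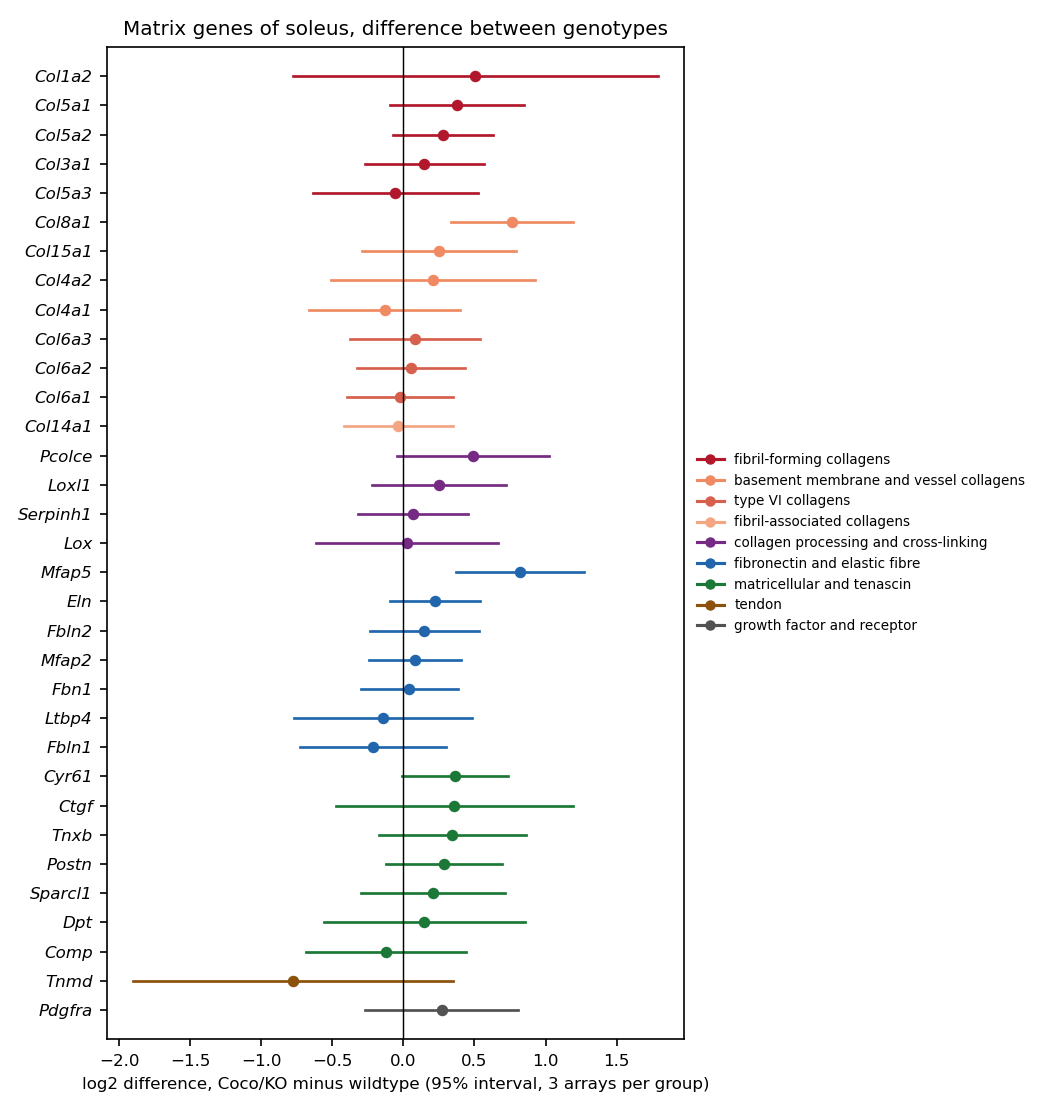
Log2 differences of the 33 detected matrix genes, Coco/KO minus wildtype (x axis, log2 units), ordered by role group from top to bottom; points are the limma estimates and lines the 95% intervals (3 arrays per group). MFAP5 (0.82) and COL8A1 (0.76) lie farthest to the right with intervals clear of 0, and TNMD (-0.77) lies farthest to the left with an interval that spans 0.

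COL3A1 and COL1A2, chains of the main fibril collagens of muscle connective tissue, showed no difference beyond the spread of the arrays. COL3A1, the only chain of type III collagen, had intensities of 2086, 1422 and 3444 in Coco/KO muscle, against 1439, 2164 and 2215 in wildtype muscle. The groups overlapped, with the brightest array in Coco/KO, and the log2 difference was 0.15 (SE 0.18, 95% interval -0.27 to 0.57, limma adjusted p = 0.927). Without Coco/KO array 3 it was -0.02.

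COL1A2, which encodes the alpha 2 chain of type I collagen, gave 1259, 725 and 1094 in Coco/KO muscle, against 1386, 256 and 752 in wildtype muscle. Wildtype array 2 stood far below the other 5. The wildtype spread on the normalized log2 scale was accordingly wide, with 10.03 ± 0.25 in Coco/KO and 9.53 ± 1.37 in wildtype muscle (SD, n = 3 each). Its difference of 0.51 (SE 0.56, 95% interval -0.78 to 1.79) became -0.21 without wildtype array 2 and 1.17 without wildtype array 1. The standard error over the beads of the low wildtype value was 24.9 intensity units, which covers no variation between pools.

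COL1A1, the alpha 1 chain of type I collagen, could not be compared: its row was detected on 0 of 6 arrays, with intensities of 80.8, 18.6 and 30.7 in Coco/KO muscle, against 41.5, 37.8 and 19.7 in wildtype muscle. A low row says only that this row saw little signal, since a row's brightness depends on its probe, and it sets no level of the gene.

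The type V chains regulate the width of type I fibrils. COL5A1 had intensities of 348, 173 and 518 in Coco/KO muscle, against 237, 264 and 196 in wildtype muscle, with overlap between the groups and a log2 difference of 0.38 (SE 0.21). COL5A2 was dim, at 26.6, 21.6 and 60.4 in Coco/KO, against 10.4, 21.5 and 24.7 in wildtype muscle. After normalization its groups did not overlap (0.28, SE 0.16, unadjusted p = 0.109 in limma), and before normalization they did. COL5A3 had a difference of -0.06 (SE 0.26) whose sign turned with an array left out. Of the 6 fibril-forming chains, 5 were tested and 0 passed.

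Among the basement membrane and vessel-associated collagens, COL8A1 had the largest difference. It encodes the alpha 1 chain of the short-chain type VIII collagen, which forms networks beneath endothelium and around vessels. Intensities were 544, 379 and 1038 in Coco/KO muscle, against 273, 411 and 325 in wildtype muscle. As deposited the groups overlapped, Coco/KO array 2 lying under wildtype array 2. Coco/KO array 2 also had the lowest mean intensity of the 6 arrays (330), close to wildtype array 1 (332), with the others reaching up to 470. On the normalized log2 scale the groups separated, at 9.19, 9.15 and 9.77 in Coco/KO and 8.62, 8.64 and 8.57 in wildtype muscle. The difference was 0.76 (SE 0.19, 95% interval 0.33 to 1.19), a 1.69-fold higher value, and it did not pass after adjustment (limma, adjusted p = 0.298). Without Coco/KO array 3 it was 0.56.

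COL4A1 and COL4A2, the chains of the main basement membrane collagen that are transcribed from a shared promoter region in opposite directions, had differences of opposite sign. COL4A2 had intensities of 978, 482 and 748 in Coco/KO muscle, against 759, 753 and 354 in wildtype muscle, with overlap (0.21, SE 0.31). COL4A1 differed by -0.13 (SE 0.23), and each sign turned with an array left out. COL15A1, a proteoglycan collagen of the zone between basement membrane and interstitium, gave 153, 89.3 and 83.5 in Coco/KO, against 104, 88.1 and 59.0 in wildtype muscle, also with overlap (0.25, SE 0.24). COL18A1, the source of endostatin, was detected on 2 arrays only and was not tested; its intensities were 106, 74.7 and 164 in Coco/KO, against 106, 115 and 90.2 in wildtype muscle.

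Type VI collagen, the beaded filament network whose loss causes congenital muscular dystrophy in humans, differed little in all 3 chains. COL6A1 had a difference of -0.03 (SE 0.16, 95% interval -0.40 to 0.35), COL6A2 of 0.05 (SE 0.17, -0.32 to 0.43) and COL6A3 of 0.08 (SE 0.20, -0.37 to 0.54). The 3 intervals reach no further than -0.40 and 0.54. COL6A3, for example, gave 311, 204 and 622 in Coco/KO, against 246, 405 and 335 in wildtype muscle, the highest and the lowest value both being in Coco/KO muscle. COL6A2 gave 94.3, 43.9 and 96.2 in Coco/KO, against 76.4, 79.0 and 61.0 in wildtype muscle, again with overlap. Of the fibril-associated collagens, which sit on the surface of fibrils, COL14A1 gave 55.5, 31.5 and 36.0 in Coco/KO, against 50.9, 36.7 and 46.5 in wildtype muscle (-0.03, SE 0.17), and COL12A1 was detected on no array, with all intensities between -8.2 and 1.0.

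Collagen processing genes gave no call either. PCOLCE, which enhances the removal of the collagen C-propeptide, had intensities of 328, 176 and 186 in Coco/KO muscle, against 142, 130 and 157 in wildtype muscle. As deposited, every Coco/KO array was above every wildtype array, but after quantile normalization the groups overlapped, with Coco/KO array 3 at 7.68 and wildtype array 1 at 7.84. The difference was 0.49 (SE 0.23, 95% interval -0.05 to 1.02, limma adjusted p = 0.651). Among all rows tested, 7.53% had non-overlapping deposited intensities (3.37% higher in Coco/KO), and among the 33 matrix genes 2 did, PCOLCE and MFAP5.

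SERPINH1, the collagen chaperone Hsp47, was almost level, with 3576, 3563 and 5921 in Coco/KO muscle, against 3505, 4317 and 4245 in wildtype muscle and a log2 difference of 0.07 (SE 0.17). LOX, the lysyl oxidase that starts cross-linking, took its sign from which Coco/KO array was left out. It gave 614, 663 and 1881 in Coco/KO, against 720, 1137 and 843 in wildtype muscle. Its difference of 0.03 (SE 0.28) became -0.30 without Coco/KO array 3 and 0.32 without Coco/KO array 1. LOXL1, the lysyl oxidase needed for elastic fibres, showed the same high array (416, 271 and 714 in Coco/KO, against 348, 471 and 276 in wildtype muscle; 0.25, SE 0.21). P4ha1, the catalytic subunit of prolyl 4-hydroxylase, was detected on 1 array and not tested.

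MFAP5, a microfibril-associated glycoprotein that binds fibrillin and is a marker of a class of matrix fibroblasts, had the lowest p-value of the 33. Its intensities were 1297, 1053 and 2575 in Coco/KO muscle, against 658, 954 and 874 in wildtype muscle. All 3 Coco/KO arrays lay above all 3 wildtype arrays, before and after normalization. Normalized log2 values were 10.62 ± 0.37 in Coco/KO and 9.80 ± 0.06 in wildtype muscle (SD, n = 3 each), a difference of 0.82 (SE 0.20, 95% interval 0.37 to 1.27) or a 1.77-fold higher value. After adjustment over all rows it did not pass (limma, adjusted p = 0.290). With each array left out in turn the difference stayed between 0.61, without Coco/KO array 3, and 0.96, without Coco/KO array 1, and adjusted p-values ran from 0.145 to 0.579 (up to 1.00 with median scaling).

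Its partners in the microfibril had smaller differences on this scale. FBN1, fibrillin-1, the backbone of the microfibril, had 416, 297 and 619 in Coco/KO muscle, against 376, 446 and 420 in wildtype muscle and a log2 difference of 0.04 (SE 0.15, 95% interval -0.30 to 0.39). MFAP2, the paralogue of MFAP5, differed by 0.08 (SE 0.14, -0.24 to 0.40). The MFAP5 interval lies above 0 while those of FBN1 and MFAP2 span it, but the differences between these genes were not tested.

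ELN, elastin, had intensities of 291, 202 and 391 in Coco/KO, against 221, 268 and 228 in wildtype muscle, which overlapped. It had normalized values of 8.39, 8.39 and 8.52 in Coco/KO muscle, against 8.34, 8.15 and 8.15 in wildtype muscle. On that scale the groups separated but lay close together (0.22, SE 0.14, unadjusted p = 0.147 in limma). Among the fibulins, which join elastin to microfibrils and basement membranes, FBLN2 differed by 0.15 (SE 0.17) and FBLN5 was detected on no array. FBLN1 gave 136, 71.7 and 72.6 in Coco/KO, against 117, 94.8 and 142 in wildtype muscle, with overlap (-0.21, SE 0.23). LTBP4, which tethers latent TGF-beta to fibrillin, had a difference of -0.14 (SE 0.27). FN1, fibronectin, was also detected on no array, with intensities of 50.3, 20.3 and 50.8 in Coco/KO, against 36.2, 27.9 and 18.8 in wildtype muscle.

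**Figure D2:**
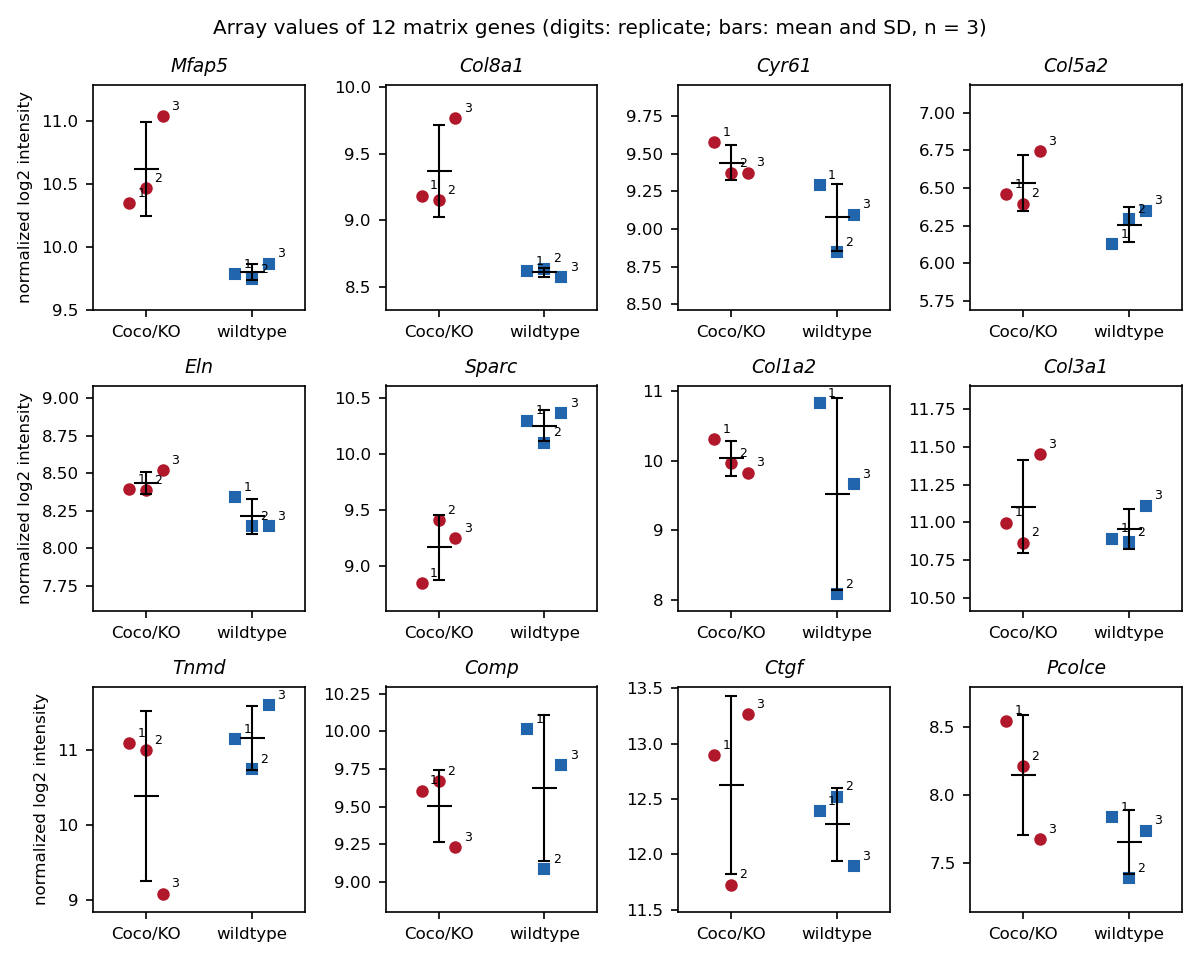
Normalized log2 intensity (y axis) of 12 matrix genes on each array, Coco/KO circles to the left and wildtype squares to the right; digits give the replicate and bars the mean and SD (n = 3), and each panel has its own y range. MFAP5, COL8A1, CYR61, COL5A2 and ELN were higher on all 3 Coco/KO arrays and SPARC was lower on all 3, while COL1A2 was spread by wildtype array 2 and TNMD by Coco/KO array 3.

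Over all groups, 5 of the 33 tested genes had no overlap between the genotypes on the normalized scale (15.2%), all higher in Coco/KO muscle: MFAP5, COL8A1, CYR61, COL5A2 and ELN. Among all rows tested 12.7% did not overlap, 6.13% being higher and 6.61% lower in Coco/KO muscle. Before normalization 4 of these 5 overlapped, MFAP5 being the exception.

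The matricellular genes included the pair of CCN family members that respond quickly to load and to growth factors. CYR61 (now Ccn1) gave 740, 453 and 770 in Coco/KO muscle, against 465, 483 and 495 in wildtype muscle. Normalized, its lowest Coco/KO value was 9.37 and its highest wildtype value 9.29, a narrow gap. The log2 difference of 0.36 (SE 0.16, 95% interval -0.01 to 0.73) did not pass (limma, adjusted p = 0.618). CTGF (now Ccn2) ranged more widely, with 7520, 2659 and 11642 in Coco/KO, against 4224, 6689 and 3962 in wildtype muscle. Both the highest and the lowest of its 6 values were in Coco/KO muscle. Its difference of 0.36 (SE 0.37) was 0.04 without Coco/KO array 3 and 0.80 without Coco/KO array 2.

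The upstream sequences of CYR61 and COL8A1 are shown for context. Among the tested genes with separated groups on the normalized scale, these 2 had a promoter entry. Genes outside the test are not shown, SPARC among them, which also had an entry and separated groups. Each sequence is the 250 bases before the gene's start in RefSeq's GRCm38.p6 annotation, 5′ to 3′ on the minus strand. Capitals mark a TEAD site (GGAATG or its reverse complement CATTCC, bound by the factors that partner YAP) and a TATA box (TATAAA, this strand only); AP-1 sites (TGANTCA) and CArG boxes, the binding sites of SRF, were searched as well. The motifs do not overlap each other in these windows.
CYR61 (Ccn1), chr3:145649986-145650235: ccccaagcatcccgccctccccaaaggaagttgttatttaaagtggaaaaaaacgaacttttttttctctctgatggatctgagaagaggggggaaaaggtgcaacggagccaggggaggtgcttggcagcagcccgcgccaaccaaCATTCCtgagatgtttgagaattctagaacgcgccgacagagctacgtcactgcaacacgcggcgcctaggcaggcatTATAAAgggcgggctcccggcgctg
COL8A1, chr16:57754738-57754987: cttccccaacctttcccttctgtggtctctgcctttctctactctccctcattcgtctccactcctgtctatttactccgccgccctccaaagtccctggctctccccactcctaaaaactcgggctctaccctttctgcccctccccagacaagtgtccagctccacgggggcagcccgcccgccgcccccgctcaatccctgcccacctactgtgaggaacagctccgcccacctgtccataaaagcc
The CYR61 window holds 1 TEAD site and 1 TATA box, and the COL8A1 window holds none of the 4 motifs. Of 32851 promoters of the same length, 12.6% hold the TEAD letters, 7.59% the TATA letters, 6.75% the AP-1 letters and 1.47% a CArG box. The table lists 40 promoters for 31 of the 44 matrix genes, and of these 40 promoters 6 (15%) hold the TEAD letters, 5 (12.5%) the TATA letters, 2 (5%) the AP-1 letters and 0 a CArG box. A match is a description of the sequence only.

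SPARC, the collagen-binding glycoprotein osteonectin, ran opposite to most of the set. Intensities were 417, 466 and 697 in Coco/KO muscle, against 953, 1257 and 1256 in wildtype muscle, with all 3 Coco/KO arrays below all 3 wildtype arrays. Its detection score nevertheless stayed between 0.655 and 0.940, below the limit on all 6 arrays, so it was not among the 33 genes. In the fit without the detection filter its log2 difference was -1.09 (SE 0.16, 95% interval -1.46 to -0.72), a 2.12-fold lower value, and did not pass (limma over 34492 rows, adjusted p = 0.108). No matrix gene passed in that fit, where 0.0609% of rows did. Over the 14 other settings the SPARC difference ran from -1.30 to -0.92 and its adjusted p from 0.0927 to 0.514.

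The mismatch of brightness and detection score was not limited to SPARC. Of 5796 rows above 100 intensity units on all 6 arrays, 338 (5.83%) did not meet the detection rule, and SPARC was the 1 matrix gene of 25 among them. The deposited probe-level value table has 12140 more probes than the gene-level table has rows, so some rows may average several probes; the sources used here do not say which, and a link to the score was not tested.

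SPARCL1, the relative of SPARC also known as hevin, did not share its direction. It gave 1174, 422 and 932 in Coco/KO muscle, against 569, 748 and 658 in wildtype muscle (0.21, SE 0.22), with the highest and the lowest value both in Coco/KO muscle. POSTN, periostin, a scaffold protein of injured and loaded tissue, gave 106, 53.2 and 66.0 in Coco/KO, against 55.5, 54.2 and 47.0 in wildtype muscle (0.28, SE 0.18), with overlap. TNXB, tenascin-X, which spaces collagen fibrils, differed by 0.34 (SE 0.23). DPT, dermatopontin, was led by Coco/KO array 1: 2144, 678 and 1108 in Coco/KO, against 689, 1298 and 1222 in wildtype muscle. Its difference of 0.15 (SE 0.31) became -0.25 without that array. TNC (tenascin-C), THBS4, known from tendon attachments, and THBS1 were at or near background, detected on 0, 0 and 1 of 6 arrays, and have no comparison.

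TNMD, tenomodulin, a membrane protein of tendon cells, had the largest negative difference among the tested genes. Intensities were 2233, 1538 and 614 in Coco/KO muscle, against 1758, 1963 and 3193 in wildtype muscle. Coco/KO arrays 1 and 2 lay within or close to the wildtype range, and Coco/KO array 3 lay far below it. The difference of -0.77 (SE 0.49, 95% interval -1.90 to 0.35, limma adjusted p = 0.757) shrank to -0.12 without Coco/KO array 3. With another array left out it reached -1.13, and it stayed below 0 in every setting. Without Coco/KO array 1 its unadjusted limma p was under 0.05. COMP, cartilage oligomeric matrix protein, which is also abundant in tendon, differed by -0.12 (SE 0.25), with its lowest normalized values on wildtype array 2 (9.08) and Coco/KO array 3 (9.23).

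Most tendon markers lay on the same side of 0. All 8 of the list were tested, 7 had a difference below 0, 0 passed after adjustment, and their median difference was -0.68. At an unadjusted limma p under 0.05, 3 were lower and 1 was higher in Coco/KO muscle. Of all rows tested, 4.23% were lower and 3.96% higher at that p. The higher marker was CILP, with 47.0, 57.2 and 195 in Coco/KO, against 42.6, 44.4 and 34.7 in wildtype muscle (0.57, SE 0.24, adjusted p = 0.577). Its groups did not overlap before or after normalization. After normalization the lowest Coco/KO value was 6.77 and the highest wildtype value 6.74, a narrow gap. The groups of KERA and FMOD, both lower in Coco/KO muscle, did not overlap before or after normalization either. Among all rows tested, 12.7% did not overlap after normalization. KERA, keratocan, gave 1077, 481 and 447 in Coco/KO muscle, against 1454, 1416 and 2600 in wildtype muscle (-1.45, SE 0.37, limma adjusted p = 0.313). FMOD, fibromodulin, a regulator of fibril growth, gave 44.6, 76.5 and 78.9 in Coco/KO, against 202, 148 and 224 in wildtype muscle (-0.96, SE 0.23, adjusted p = 0.293). Their summed normalized intensity was 2508 to 3135 in Coco/KO and 3145 to 8143 in wildtype muscle, wildtype array 2 being lowest in its group. EGR1, an immediate early transcription factor that is also active in tendon cells, made up 638 to 1088 of these sums in Coco/KO and 3523, 650 and 3925 in wildtype muscle. Without it, a choice made after seeing the values, the sum was 1421 to 2380 in Coco/KO and 2495 to 4218 in wildtype muscle, with 6 of 7 markers below 0 and a median difference of -0.66. All 8 were detected on at least 1 array. The part of tendon content in the TNMD, COMP and COL1A2 values was not tested.

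**Figure D3:**
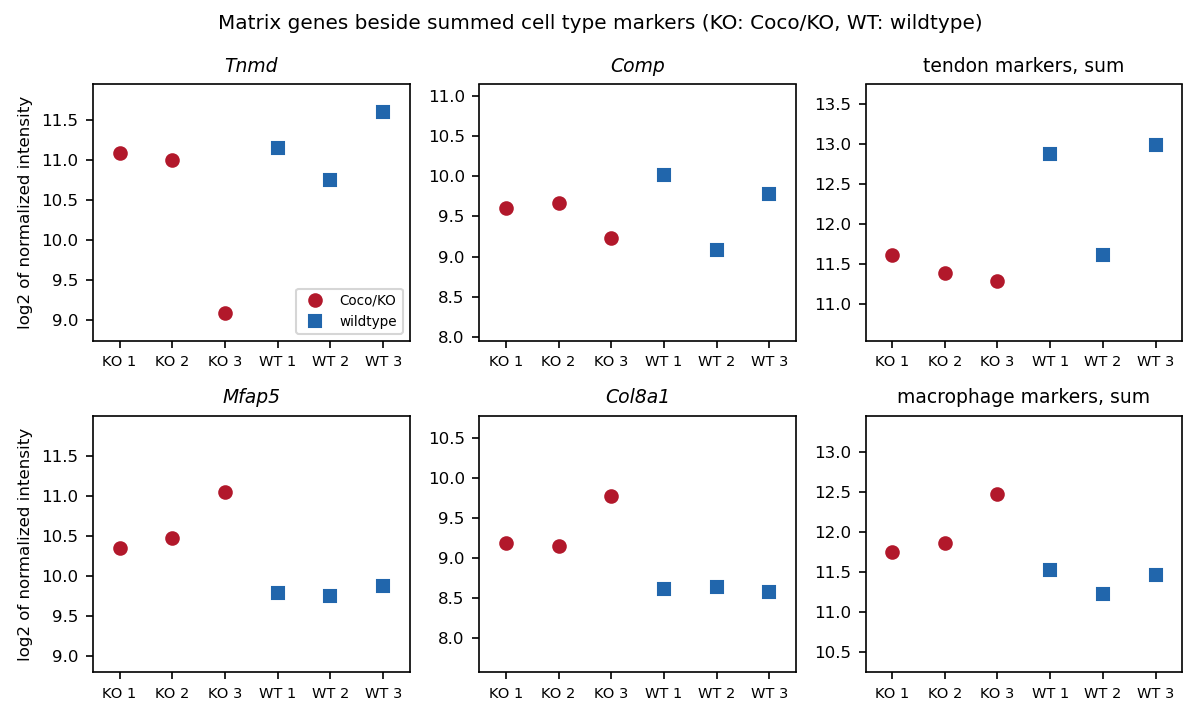
Log2 of normalized intensity (y axis) on each array for TNMD, COMP and the summed tendon markers (upper row) and for MFAP5, COL8A1 and the summed macrophage markers (lower row), Coco/KO circles left of wildtype squares; every panel spans the same number of log2 units and no error bars are drawn, as each point is 1 array. Coco/KO array 3 is lowest for TNMD and highest for MFAP5, COL8A1 and the macrophage sum.

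Macrophage markers lay above 0 beside MFAP5 and COL8A1. All 10 of the tested macrophage markers (of 12 listed) had a difference above 0, with a median of 0.66 and none past the threshold. Of these 10, 5 were higher and 0 lower at an unadjusted limma p under 0.05. Among all rows tested, 3.96% were higher and 4.23% lower at that p. CD74 had the lowest p of the macrophage markers (0.77, SE 0.16, limma adjusted p = 0.229). Their summed normalized intensity was 3451, 3711 and 5672 in Coco/KO muscle, against 2952, 2395 and 2835 in wildtype muscle. Fibroblast markers were closer to level: 9 of 12 were tested, 5 lay above 0 and 4 below, the median difference was 0.04, and the sum was 25301 to 28237 in Coco/KO and 23970 to 24760 in wildtype muscle. MGP, matrix Gla protein, was the fibroblast marker of lowest p (0.58, SE 0.15, limma adjusted p = 0.313), followed in the other direction by C3, the central complement component (-0.69, SE 0.25, adjusted p = 0.492), and DCN, the collagen-binding proteoglycan decorin (-0.24, SE 0.13, adjusted p = 0.703). At an unadjusted p under 0.05, 1 fibroblast marker was higher and 1 lower. Adipocyte markers lay on the other side, with 5 of 5 tested below 0, a median of -0.81 and a sum of 6635 to 13283 in Coco/KO, against 12057 to 26547 in wildtype muscle. Of these 5, 3 were lower and 0 higher at an unadjusted limma p under 0.05. For macrophage and fibroblast lists no marker on the array went undetected on all 6 arrays, and for adipocytes 1 did. Endothelial markers (4 tested, median -0.02), smooth muscle and pericyte markers (5, -0.23), Schwann cell markers (3, -0.07) and muscle fibre genes (7, 0.01) gave no call. The smooth muscle and pericyte sum was 6298, 7876 and 7508 in Coco/KO, against 9273, 9052 and 10728 in wildtype muscle. At an unadjusted limma p under 0.05, 2 of these markers were lower and 0 higher. The Schwann cell sum was 491, 436 and 460 in Coco/KO, against 525, 660 and 516 in wildtype muscle. Endothelial and muscle fibre sums overlapped between the genotypes. The part of these cell types in the matrix values was not tested.

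PDGFRA, the PDGF receptor that marks fibro-adipogenic progenitors, had intensities of 585, 266 and 893 in Coco/KO muscle, against 279, 601 and 449 in wildtype muscle (0.27, SE 0.23), and its groups overlapped. TGFB1, the growth factor that drives collagen synthesis, was detected on 1 array; its intensities of -5.2, 2.6 and 29.2 in Coco/KO, against -9.9, -25.4 and -8.0 in wildtype muscle, sit around the background level and give no fold.

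**Figure D4:**
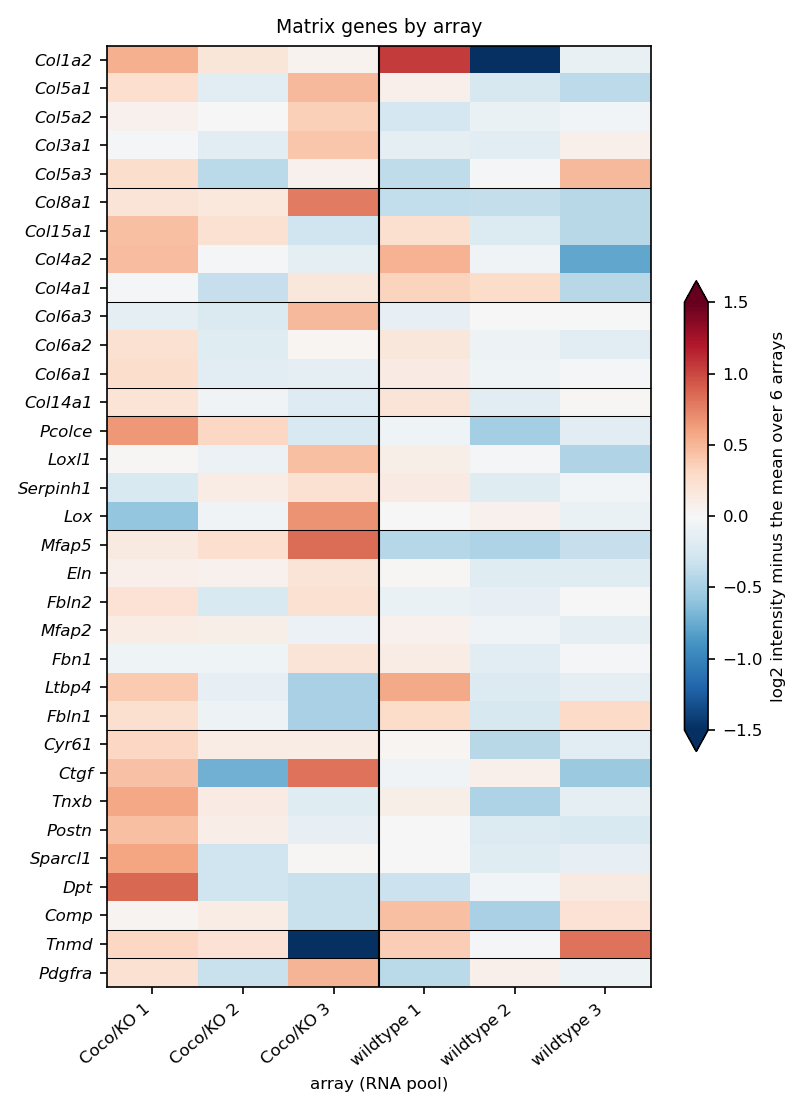
Normalized log2 intensity minus each gene's mean over 6 arrays (colour, red above and blue below that mean, capped at 1.5) for the 33 detected matrix genes (rows, by role group, lines between groups) and the 6 arrays (columns, Coco/KO left of wildtype). Coco/KO arrays 1 and 3 hold most of the row maxima, and COL1A2 on wildtype array 2 and TNMD on Coco/KO array 3 reach the end of the scale.

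How the genes varied across pools was uneven. Coco/KO array 3 held the highest normalized value of 14 of the 33 genes and Coco/KO array 1 that of 11, whereas Coco/KO array 2 and wildtype array 2 held that of 0. Over all rows tested the highest value fell on Coco/KO array 1 in 21.7%, Coco/KO array 2 in 18.7%, Coco/KO array 3 in 13.8% and wildtype array 2 in 15.8%. Members that peaked on Coco/KO array 3 included MFAP5, COL8A1, COL3A1, COL5A1, LOX, LOXL1, CTGF and PDGFRA, and those on Coco/KO array 1 included DPT, TNXB, PCOLCE, SPARCL1 and POSTN. Wildtype array 1 held the highest value of 5 genes, among them COL1A2 and COL4A1, and wildtype array 3 that of 3. What set these arrays apart was not tested.

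The spread between pools was larger than the measurement error of the beads. For all 33 tested genes the SD between arrays of a genotype exceeded the bead-based error, with a median ratio of 3.03, against 2.19 over all rows tested. The ratio was highest for DPT (12.2), COL1A2 (11.1), TNMD (9.55) and CTGF (9.11) and near 1 for MFAP2 (1.03), ELN (1.14) and COL5A2 (1.15). The bead error covers the hybridised array alone and no step before it.

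Other genes of the same pathways gave no call. Among 22 further collagens 7 were tested and 0 passed; COL4A5, a chain of a second basement membrane network, had the lowest p (0.44, SE 0.16, unadjusted p = 0.0248). Among 24 further folding and processing genes 14 were tested, 10 lay above 0 and 0 passed. LEPREL1, a collagen prolyl 3-hydroxylase, had the lowest p of these, with intensities of 131, 107 and 98.7 in Coco/KO muscle, against 17.8, 52.7 and 40.4 in wildtype muscle. Its groups did not overlap (0.91, SE 0.20, limma adjusted p = 0.253), as for 12.7% of all rows tested. LEPREL1 was detected on 2 Coco/KO arrays and 1 wildtype array only.

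Of 21 further TGF-beta pathway genes 11 were tested, 8 lay below 0 and 0 passed. SMAD3, the signal transducer through which TGF-beta switches on collagen genes, gave 1154, 416 and 816 in Coco/KO muscle, against 1262, 1975 and 1336 in wildtype muscle, again without overlap (-1.0, SE 0.23, limma adjusted p = 0.281). THBS2, a matricellular thrombospondin, differed by -0.71 (SE 0.23, adjusted p = 0.434). Of 10 genes that encode or answer to the actin-sensitive factors SRF, MRTF and YAP, 6 were tested and 0 passed, with ANKRD1 at 1.25 (SE 0.35, adjusted p = 0.344). The counts past the threshold were therefore 0 in both directions for each of the 4 lists.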

How the data were processed

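The scanner table was exported with BeadStudio 3.2.6 without normalization, per the file headers, and holds deposited intensity values, bead SDs, the count of beads behind each value, and a deposited detection fraction per array. Values at or below 0 (30.1% to 32.9% per array) show that background had been subtracted. A constant of 42.7, which set the lowest value to 1, and an offset of 16 were added, followed by log2 and quantile normalization. Rows detected on at least 3 of 6 arrays were tested with limma 3.58.1 in R 4.3.3 on genotype alone, all 6 arrays in 1 fit. The procedure was tested on simulated data. Old row names (CTGF, CYR61) were updated through RefSeq's GRCm38.p6 table. Members and lists were chosen with earlier results of these data known. Genes were named by a fixed rule: the main fibril collagens, members with an unadjusted p under 0.05, the brightest and dimmest, further members of lowest p per role group, and at most 3 per other list. Other members were added to account for all 44, and SPARC, CTGF, TNMD, COMP and LOX were described more fully after their values were seen. CILP was added to the 3 named tendon markers, also after its value was seen. Brightness was ranked across rows for naming alone; rows differ in probes, so no gene's level is set against another's. Replicate numbers name different pools and were not used as a block. Another 24 per-array columns and the deposited value table, whose probes nothing here pairs with genes, were not used. BeadStudio and limma are also listed in the submitters' processing notes. Alternatives covered offset, background model, normalization, filter, variance model, weights, block, chip position and each array left out.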

Additional observations from a re-analysis of the deposited data

How the results depend on the processing

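No matrix gene passed an adjusted p of 0.05 (limma) in any of the 16 alternative settings that kept this threshold, while 2 had an unadjusted p under 0.05 with the reported settings. Among the 33 genes that count was 2 to 5 with 1 array left out and 4 with modelled background (COL8A1, CYR61, ELN, MFAP5). It was 2 or 3 in the other alternatives. In the fit without the detection filter, SPARC (lower in Coco/KO muscle) and TGFB1 (higher) also had an unadjusted limma p under 0.05 (9.4e-05 and 0.0196). Neither is among the 33 genes. TGFB1 was detected on 1 array with intensities around the background level, so its p-value gives no difference in expression. Over all rows 18 were called, against 9 with an offset of 50, 2 with background modelled from the detection scores, 5 with median scaling, 9 among rows detected on all 6 arrays, 11 with chip position in the model, 5 to 29 with 1 array left out, and 1033 at an unadjusted p under 0.05; the cause was not tested. The replicate block gave 13 calls over all rows and 0 among the matrix genes. With group means removed, same-numbered pools had correlations of -0.04, -0.29 and 0.09, and differently numbered pools -0.21 to 0.27. So few values show no pairing by number and cannot exclude it. A filter that also kept rows above 50 intensity units, chosen after seeing the data, gave 19 calls and tested 36 matrix genes, SPARC among them (adjusted p = 0.108). The members' median difference kept its sign, from 0.07 with modelled background to 0.20 with median scaling, and from 0.08 to 0.27 with 1 array left out. Of the 33 genes 15 kept their direction in every setting, 13 of them higher. With median scaling COL6A1 turned to 0.0042. With chip position in the model COL15A1 turned to -0.056, COL1A2 to -0.058 and COL4A2 to -0.23. In that model COL5A3 turned to 0.095, COL6A2 to -0.086 and MFAP2 to -0.0063, and the cause was not tested. Coco/KO samples sat at positions A, C and D of the chip and wildtype at B, E and F, so position is partly confounded with genotype. With 1 array left out, signs turned within -0.14 to 0.058 for COL14A1, -0.21 to 1.17 for COL1A2, -0.024 to 0.27 for COL3A1, -0.37 to 0.0084 for COL4A1, -0.13 to 0.53 for COL4A2, -0.27 to 0.17 for COL5A3, -0.16 to 0.050 for COL6A1, -0.047 to 0.16 for COL6A2, -0.14 to 0.22 for COL6A3, -0.39 to 0.074 for COMP, -0.25 to 0.35 for DPT, -0.044 to 0.11 for FBN1, -0.30 to 0.32 for LOX, -0.37 to 0.11 for LTBP4, -0.029 to 0.20 for SERPINH1 and -0.035 to 0.41 for SPARCL1. Rows near background cannot show a difference at this signal.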
